A study of Mus musculus with 12 samples.

Results

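The genes described here are 10 acute-phase and alarmin genes, Saa3, Saa1, Lcn2, Hp, S100a8, S100a9, Orm1, Chil1, Il33 and Slpi, of the 18996 genes in the count table. They were taken by gene symbol, all 10 had a row, and all 10 were among the 14765 genes that passed the filter on low counts. They were chosen by their measured CPM in the 3 groups, so their values and group differences are a description and carry no p-value. Where calls of the fit over all genes are counted among them, the count describes the same values and is no test. Bulk mRNA sequencing covered 12 mice, 4 each in the No operation, SHAM, and Laminectomy groups, all BALB/c mice of both sexes and 5 to 7 weeks of age by the study's methods. No operation tissue was paraspinal soft tissue without surgery, SHAM tissue was scar with soft tissue taken where soft tissue had been removed and the lamina kept, and Laminectomy tissue was scar with soft tissue taken where the lamina, the bony roof of the spinal canal, had been excised. Operated tissue was collected 7 days after surgery. The design text says that 3 mice per group entered the published comparisons without naming them, so all 4 were used here. Operated samples therefore differ from No operation samples in the tissue dissected as well as in surgery, and these cannot be told apart.

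Acute-phase proteins are plasma and tissue proteins that increase within hours of injury or infection, mainly when interleukin-6 and interleukin-1 act through STAT3, NF-kB and C/EBP factors. The liver makes most of the circulating pool, and fibroblasts, macrophages, adipocytes and epithelia make part of it at the site of damage. Alarmins are proteins that cells release on damage or activation and that other cells read as a danger signal, such as interleukin-33 from stromal nuclei and the calprotectin pair S100A8 and S100A9 from neutrophils and monocytes.

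Total counts ranged from 16803002 to 18077873 per mouse, so depth was close between mice. Values below are normalized read counts (CPM, counts relative to the TMM-scaled library total) unless stated otherwise, and 4 values in a row are those of mice 1 to 4 of a group in order. Skeletal muscle markers, 6 genes summed, lay between 66360 and 101900 CPM in No operation mice, 1451 and 7440 in SHAM mice, and 2615 and 10580 in Laminectomy mice. Fibroblast markers, 9 genes summed, lay between 6551 and 21830, 44580 and 60710, and 41000 and 46880 CPM in the same order. Col1a1, Col3a1 and Postn, matrix genes of active fibroblasts, make up most of that sum, and the list was not uniform: by group mean 5 of 9 markers were higher and 4 lower in SHAM, and 6 higher and 3 lower in Laminectomy than in No operation. Dcn, the proteoglycan decorin, had a mean of 3288 CPM in No operation, 1711 in SHAM and 991.3 in Laminectomy mice, and Pi16, a marker of resting fibroblasts, 255.7, 244.1 and 46.46. Macrophage and monocyte markers, 10 genes summed, lay between 867.5 and 2148 CPM in No operation, 5199 and 8801 in SHAM, and 3822 and 5855 in Laminectomy mice. Both operated groups lay above every No operation mouse in this sum, by 2.21 and 1.69 on the log2 scale (two-sided exact permutation test, p = 0.0286, the smallest that 4 against 4 mice allow, adjusted over 27 tests 0.0643). In bulk tissue, fewer cells of a type and less RNA per cell cannot be told apart. Of the 8 hepatocyte markers, 6 were below 1 CPM in every mouse and Alb, the main plasma protein of the liver, did not exceed 1.89 CPM. The remaining marker, Cyp2e1, which fat also expresses, lay between 245.6 and 397.5 CPM in No operation, 2.40 and 427.1 CPM in SHAM, and 0.0 and 27.4 CPM in Laminectomy mice. SHAM 1 and No operation 1 stood apart from the rest of their groups in several of the genes below, and results that rest on them are given with and without them.

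Promoter sequence helps to place these genes, since several are textbook targets of C/EBP factors, which bind acute-phase promoters. RefSeq promoter windows (GRCm38.p6) matched 8 of the 10 genes, with no window used here for Hp and Orm1. The C/EBP letters TTNNGCAA, read on both strands of the 250 bases before the start, occurred in 6 of the 9 windows of these 8 genes (Il33 has 2), against 9.56% of all 32851 windows. The STAT letters TTCNNNGAA occurred in 0 of their 9 windows (7.02% of all windows) and the NF-kB letters, GGG and TTCC with 3 bases between them, in 0 of 9 (4.65%), so no match overlapped one of another pattern. A match is a description of letters and not evidence of binding, and genes chosen for a shared pathway are not a random draw. The stretches of the 3 genes that were higher in every SHAM mouse than in every No operation mouse, and that of S100a9 for contrast, are given 5′ to 3′ along the gene's strand with the C/EBP letters in capitals. Each search covered the full 250 bases before a RefSeq start, and a printed stretch stops early where an annotated transcript begins inside it. The Slpi and Il33 starts used are not the outermost of their genes, so both stretches lie within the annotated span of the gene. The Saa3 stretch therefore holds 226 bases, and 24 more bases that are not printed lie between its end and the RefSeq start from which positions are counted. The Saa3 stretch is chr7:46715701-46715926 (minus strand), that of Slpi chr2:164356508-164356757 (minus), that of Il33, before the second of its RefSeq starts, chr19:29945540-29945789 (plus), and that of S100a9 chr3:90695722-90695971 (minus).
Saa3: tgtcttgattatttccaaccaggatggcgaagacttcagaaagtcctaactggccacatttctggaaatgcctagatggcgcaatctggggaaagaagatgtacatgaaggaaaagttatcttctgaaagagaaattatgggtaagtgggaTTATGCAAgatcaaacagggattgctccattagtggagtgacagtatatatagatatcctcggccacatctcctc
Slpi: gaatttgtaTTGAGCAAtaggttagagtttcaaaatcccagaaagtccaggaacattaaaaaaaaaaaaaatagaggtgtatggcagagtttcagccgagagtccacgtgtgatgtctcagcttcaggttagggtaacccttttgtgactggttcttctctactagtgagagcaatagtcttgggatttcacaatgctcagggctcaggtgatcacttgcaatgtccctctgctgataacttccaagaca
Il33: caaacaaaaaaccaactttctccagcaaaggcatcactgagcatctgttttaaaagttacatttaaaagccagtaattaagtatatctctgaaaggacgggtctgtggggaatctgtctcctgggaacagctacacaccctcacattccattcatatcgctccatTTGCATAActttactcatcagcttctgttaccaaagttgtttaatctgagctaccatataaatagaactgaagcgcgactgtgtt
S100a9: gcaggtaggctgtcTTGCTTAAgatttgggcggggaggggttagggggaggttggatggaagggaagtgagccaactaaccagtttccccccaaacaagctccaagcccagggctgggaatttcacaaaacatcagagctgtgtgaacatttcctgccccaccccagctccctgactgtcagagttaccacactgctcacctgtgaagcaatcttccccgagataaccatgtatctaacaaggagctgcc
In Saa3 the letters lie 99 to 92 bases before the start and in Slpi 241 to 234 bases before it, both on the gene's own strand. In Il33 they lie 85 to 78 bases before the second start and in S100a9 236 to 229 bases before its start, both read on the opposite strand. The window before the first RefSeq start of Il33, chr19:29924863-29925112 (plus), held no C/EBP, STAT or NF-kB letters.

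Saa3 varied most between groups. Saa3 encodes a serum amyloid A, a lipid-binding acute-phase protein that macrophages, adipocytes and fibroblasts make outside the liver (chromosome 7, 46711998 to 46715700, minus strand, GRCm38). Saa3 stood at 59.1, 0.945, 0.600 and 0.491 CPM in No operation mice 1 to 4. In SHAM mice 1 to 4 it stood at 4301, 1461, 584.2 and 333.8 CPM. In Laminectomy mice 1 to 4 it stood at 106.4, 50.3, 79.4 and 175.0 CPM. Every SHAM mouse lay above every Laminectomy mouse, and the Laminectomy range overlapped No operation only through No operation 1, which held 858 counts where its 3 group mates held 7 to 15. The order of the groups was therefore SHAM, Laminectomy, No operation, with the lower neighbours overlapping. The fitted log2 fold change of SHAM against No operation was 6.77 ± 1.65 (SE, n = 4 per group), of Laminectomy against No operation 2.75 ± 1.38, and of Laminectomy against SHAM -4.02 ± 1.45. Without No operation 1, Saa3 differed by 11.24 between SHAM and No operation and by 7.22 between Laminectomy and No operation on the log2 scale. Without SHAM 1, whose Saa3 was 12.9 times that of SHAM 4, the difference between SHAM and No operation was 5.71 and that between Laminectomy and SHAM -2.94.

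**Figure D1:**
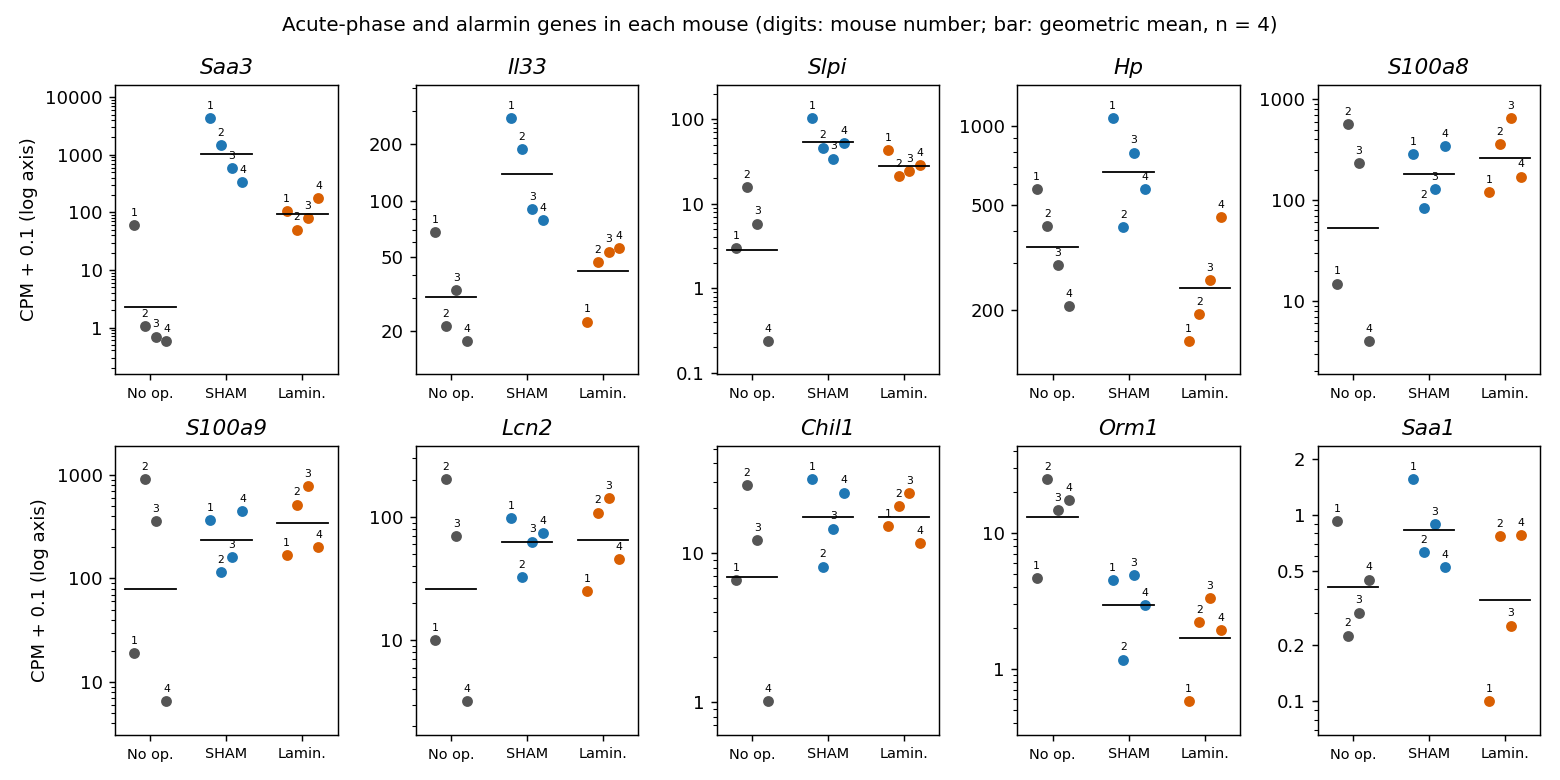
Normalized read counts (CPM + 0.1, log axis, scale set per gene) of the 10 genes in each of 12 mice, with the mouse number above each point and the geometric mean of 4 mice as a bar. Saa3 and Il33 lie higher in all SHAM mice than in all Laminectomy mice, S100a8, S100a9 and Lcn2 spread widest in No operation mice, where mice 2 and 3 are high and mice 1 and 4 low, and Orm1 is highest in No operation mice 2 to 4.

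Saa1, the liver-type serum amyloid A that dominates in plasma (chromosome 7, 46740497 to 46742980, minus strand), was close to the detection limit. It had 0 to 26 counts per mouse, between 0.126 and 0.827 CPM in No operation, 0.427 and 1.46 CPM in SHAM, and 0.0 and 0.678 CPM in Laminectomy mice. A count of 0, as in Laminectomy 1, allows up to 3 counts. The 3 groups overlapped. How the counting treated reads that Saa1 shares with its near-identical neighbour Saa2 is not given. Saa2, not tested for its low counts, did not exceed 0.371 CPM in any mouse. No order of the groups can be read for Saa1 at this depth.

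Il33, the nuclear alarmin that stromal and endothelial cells release on damage (chromosome 19, 29925114 to 29960718, plus strand), was highest in SHAM tissue. Il33 measured 67.7, 21.2, 33.2 and 17.7 CPM in the No operation group. It was at 275.5, 188.7, 90.4 and 78.5 CPM in SHAM mice. It was at 22.4, 46.8, 53.2 and 55.6 CPM in Laminectomy mice. All SHAM mice lay above all mice of the other groups, and the Laminectomy and No operation groups overlapped. The log2 fold change was 2.18 ± 0.51 for SHAM against No operation, 0.35 ± 0.50 for Laminectomy against No operation and -1.83 ± 0.51 for Laminectomy against SHAM. Without SHAM 1 the first was 1.77 and the last -1.41, and over all single mice left out the second ran from 0.14 to 0.89, the highest without No operation 1. Il33 and Saa3 did not rank the Laminectomy mice alike, since Laminectomy 1 held the least Il33 of its group and the second most Saa3.

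Slpi, an inhibitor of neutrophil elastase secreted by epithelia and leukocytes (chromosome 2, 164354070 to 164389095, minus strand), was high in both operated groups. Slpi measured 2.89, 15.5, 5.73 and 0.140 CPM in the No operation group. It was at 102.7, 46.1, 34.2 and 52.7 CPM in SHAM mice. It was at 43.0, 21.2, 24.4 and 28.4 CPM in Laminectomy mice. Both operated groups lay above every No operation mouse, and they overlapped with each other. The log2 fold change was 3.27 ± 0.77 for SHAM and 2.25 ± 0.75 for Laminectomy against No operation, and -1.01 ± 0.70 between the operated groups. Without No operation 2, the highest of its group, these were 4.32 and 3.31 for the contrasts with No operation, and without SHAM 1 the first was 2.84. Annotated exons of Slpi share 1 base with a microRNA gene.

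Hp encodes haptoglobin, the scavenger of free hemoglobin (chromosome 8, 109575128 to 109579172, minus strand). Hp measured 577.4, 414.8, 295.6 and 205.8 CPM in the No operation group. It was at 1071, 413.4, 792.5 and 575.0 CPM in SHAM mice. It was at 152.2, 192.6, 259.3 and 450.4 CPM in Laminectomy mice. SHAM 2 lay within the Laminectomy range, below Laminectomy 4, and all group pairs overlapped. The fitted order was SHAM, No operation, Laminectomy, with log2 fold changes of 0.93 ± 0.41 for SHAM against No operation, -0.50 ± 0.41 for Laminectomy against No operation and -1.44 ± 0.41 for Laminectomy against SHAM. Without No operation 1 the first of these was 1.22, and without SHAM 1 it was 0.68. Within each group the highest mouse held 2.59 to 2.96 times the Hp of the lowest.

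Orm1, which encodes the plasma carrier protein orosomucoid (chromosome 4, 63344560 to 63348163, plus strand), ran the other way. Orm1 measured 4.55, 24.6, 14.6 and 17.2 CPM in the No operation group. It was at 4.38, 1.07, 4.77 and 2.83 CPM in SHAM mice. It was at 0.477, 2.11, 3.21 and 1.82 CPM in Laminectomy mice. All Laminectomy mice lay below all No operation mice, while SHAM 3 lay above No operation 1. The log2 fold change was -2.22 ± 0.61 for SHAM and -2.99 ± 0.63 for Laminectomy against No operation, and -0.77 ± 0.61 between the operated groups. The adipocyte markers, 7 genes summed, lay between 2093 and 3587 CPM in No operation, 265.8 and 2349 in SHAM, and 74.17 and 490.7 in Laminectomy mice, with none of the 7 at 0 in all mice. Cfd, the adipocyte complement protease adipsin, fell in Laminectomy against No operation by 4.74 on the log2 scale (adjusted p = 0.0122, edgeR quasi-likelihood with Benjamini-Hochberg adjustment). DESeq2 gave Cfd a log2 fold change of -4.72 and no adjusted p. Fabp4, a fatty acid carrier, fell by 1.97 in the same contrast (adjusted p = 0.00479, edgeR). The part of adipocytes in the Orm1 values was not tested. Orm1 lies beside the near-identical Orm2 and Orm3, and how the counting treated reads that they share is not given. Orm2 did not exceed 0.782 CPM and Orm3 1.05 CPM in any mouse.

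S100a8 and S100a9 encode the subunits of calprotectin, the metal-binding alarmin that fills neutrophil cytosol (chromosome 3, 90668978 to 90670035, plus strand, and 90692632 to 90695721, minus strand). S100a8 was at 14.7, 562.0, 230.9 and 3.93 CPM in the No operation group, 284.7, 84.2, 127.2 and 340.9 CPM in the SHAM group and 120.0, 357.9, 647.0 and 170.4 CPM in the Laminectomy group. S100a9 was at 18.8, 913.6, 360.5 and 6.38 CPM in the No operation group, 364.1, 114.3, 160.3 and 449.4 CPM in the SHAM group and 168.4, 516.9, 786.4 and 201.8 CPM in the Laminectomy group. The highest and the lowest S100a9 of all 12 mice were both in the No operation group, 143 times apart, and all groups overlapped. The log2 fold changes of S100a9 had standard errors of 1.12 to 1.13, with -0.26 for SHAM and 0.37 for Laminectomy against No operation, and 0.62 between the operated groups. Without No operation 2 the first of these was 1.08 and the second 1.70. Over all single mice left out they ran from -0.68 to 1.08 and from -0.13 to 1.70, so their direction rested on single mice. The log2 fold changes of S100a8 against No operation were 0.04 in SHAM and 0.67 in Laminectomy mice, and 1.33 and 1.96 without No operation 2. The pair kept to each other in every mouse: the CPM of S100a8 was 0.615 to 0.844 times that of S100a9, a range of 1.37 times, while S100a9 itself spanned the 143 times above.

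Lcn2 encodes lipocalin 2, which binds bacterial siderophores and sits in neutrophil secondary granules (chromosome 2, 32384633 to 32388252, minus strand). Lcn2 was at 9.92, 203.7, 70.4 and 3.08 CPM in the No operation group, 98.4, 32.5, 63.3 and 73.8 CPM in the SHAM group and 24.9, 108.6, 143.3 and 45.3 CPM in the Laminectomy group. Chil1, the chitinase-like protein of macrophages and neutrophils known as YKL-40 or BRP-39 (chromosome 1, 134182176 to 134190181, plus strand), was at 6.48, 28.5, 12.1 and 0.911 CPM, 31.2, 8.02, 14.5 and 25.3 CPM, and 15.1, 20.6, 25.1 and 11.5 CPM in the same order. For both genes No operation 2 was high and No operation 4 lowest of all mice, and the groups overlapped. Their log2 fold changes against No operation were -0.10 ± 0.96 in SHAM and 0.17 ± 0.96 in Laminectomy mice for Lcn2, and 0.72 ± 0.71 and 0.59 ± 0.71 for Chil1. Without No operation 2 they were 1.26 and 1.53 for Lcn2, and 1.60 and 1.47 for Chil1. Over all single mice left out, those of Lcn2 ran from -0.51 to 1.26 and from -0.27 to 1.53 and so turned in direction, and those of Chil1 ran from 0.32 to 1.60 and from 0.20 to 1.47. Between the operated groups the log2 fold changes were 0.27 ± 0.96 for Lcn2 and -0.13 ± 0.70 for Chil1.

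Genes of immature and mature neutrophils were set beside these 4. Ngp, a granule protein of developing neutrophils in bone marrow, was at 11.1, 1429, 516.3 and 10.9 CPM in the No operation group, 2.02, 29.3, 66.0 and 271.6 CPM in the SHAM group and 113.1, 669.1, 953.0 and 152.1 CPM in the Laminectomy group. The high and low No operation mice were thus the same for Ngp as for S100a9. Mpo, the peroxidase of primary granules, measured 0.896, 356.5, 116.0 and 2.10 CPM in the No operation group, and Elane, neutrophil elastase, at 0.689, 100.1, 34.3 and 0.421 CPM. SHAM 1 was the exception: its S100a9 was 180 times its Ngp, against 0.587 to 3.90 times in the other 11 mice, and its Lcn2 was 195 times its Ltf, the granule protein lactoferrin, against 0.250 to 2.42 times. In SHAM 1 Csf3r, the receptor for the neutrophil growth factor G-CSF, was at 293.9 CPM, the highest of all 12 mice. Csf3r lay between 2.24 and 81.0 CPM in No operation, 147.8 and 293.9 in SHAM, and 100.9 and 114.7 in Laminectomy mice, without overlap. The neutrophil markers, 12 genes summed, lay between 28.6 and 2992 CPM in No operation, 696.1 and 1514 in SHAM, and 1329 and 2621 in Laminectomy mice, none of them at 0 in all mice. The list was not uniform. By group mean 8 of 12 markers were higher and 4 lower in SHAM than in No operation, and 10 higher and 2 lower in Laminectomy. Mmp9, a neutrophil gelatinase among these markers, rose in Laminectomy against No operation (log2 fold change 2.65 ± 0.97, adjusted p = 0.0329, edgeR). The call was lost without No operation 1 (2.29), No operation 3 (2.58) or Laminectomy 1 (2.25), and the change was 4.13 without No operation 2. Mmp9 was at 1643, 637.0, 686.9 and 846.1 CPM in the Laminectomy group, where the neutrophil sums were 2160, 2029, 2621 and 1329 CPM. Mmp9 thus made up most of the sum in Laminectomy 1 and 4. Laminectomy 1 held the most Mmp9 of its group and the least Ngp and Ltf. The part of neutrophil number or of marrow in the dissected tissue in these values was not tested.

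**Figure D2:**
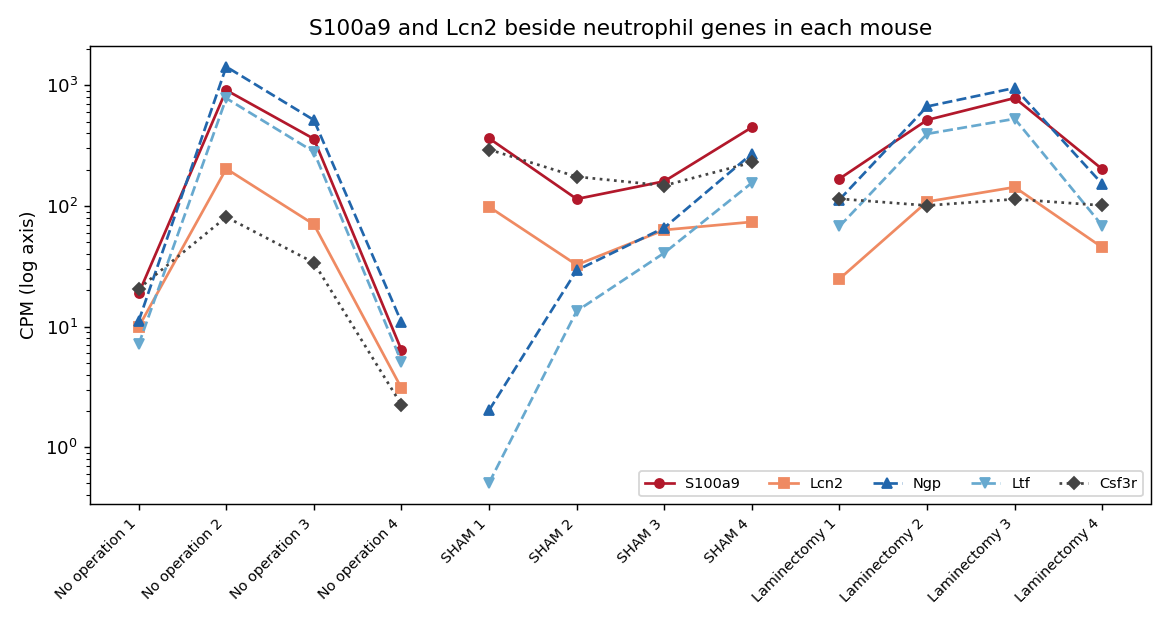
Normalized read counts (CPM, log axis) of S100a9 and Lcn2 (solid lines) beside the neutrophil granule genes Ngp and Ltf (dashed) and the G-CSF receptor gene Csf3r (dotted) in each of the 12 mice, with lines joining mice of a group only to guide the eye. Ngp and Ltf follow S100a9 in No operation and Laminectomy mice, whereas in SHAM 1 Ngp is at 2.02 CPM with S100a9 at 364.1 CPM.

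Across the 12 mice, correlations of log2 CPM describe which genes ran together, and the 12 points share group and tissue composition. S100a8 and S100a9 had a Pearson r of 0.997 (Spearman rho 0.986), Lcn2 and S100a9 0.976 (0.958), and Chil1 and S100a9 0.922 (0.853). Saa3 and Il33 had 0.857 (0.888), while Saa3 and S100a9 had 0.185 (-0.049). Orm1 had -0.704 (-0.531) with Saa3. Outside the 10 genes, those most like Saa3 were Wfdc17 (0.992, rho 0.958), Slc39a14 (0.983), Fcgr2b (0.983), C1qb (0.983) and Slc13a3 (0.981). Those most like S100a9 were Mmp25 (0.995, rho 1.0), Trem3 (0.991), Mapk13 (0.984), Retnlg (0.983) and Ly6c2 (0.981). Those most like Il33 were Lgi2 (0.963), Tgfbr2 (0.949), Pcsk5 (0.948), Rhoj (0.946) and Mt1 (0.945). Without No operation 3 and 4, the mice farthest from the median of Saa3, Wfdc17 kept an r of 0.983 with Saa3, and without No operation 1 and 4 Mmp25 kept 0.980 with S100a9. Without SHAM 1 and 2 Lgi2 kept 0.906 with Il33.

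In SHAM against No operation, the group comparison over all genes called 4 of the 10 genes DEGs (adjusted p below 0.05 and absolute log2 fold change above 0.5 by edgeR's quasi-likelihood test), against 50.8% of all genes tested. They were Saa3, Il33 and Slpi, higher in SHAM as were 25.7% of all genes, and Orm1, lower as were 25.1%. In Laminectomy against No operation 2 of 10 were called, against 48.6%: Slpi, higher (24.2% of all genes), and Orm1, lower (24.4%). The call for Slpi was lost without No operation 1 (2.02), No operation 3 (2.22) or Laminectomy 1 (2.01). Saa3 was called in the second contrast without No operation 1, and Hp was called in the first (higher in SHAM) without No operation 1 (1.22), SHAM 2 (1.13) or Laminectomy 4 (0.94). Both contrasts share the No operation mice. The genes whose groups did not overlap were Saa3, Il33 and Slpi in the first contrast (54.5% of all genes did not overlap, and 26.7% were higher in every SHAM mouse). In the second they were Slpi and Orm1 (56.0% of all genes, 27.0% higher and 29.0% lower). The members were chosen on these values, so nothing is read from their counts.

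Between Laminectomy and SHAM, edgeR called 0 of the 10 genes, as it called 0.0% of all 14765. An unadjusted p under 0.05 was found for 3 of the 10, Saa3, Il33 and Hp, and for 2360 of all genes, and DESeq2 called these 3, lower in Laminectomy, against 4.35% of the genes it tested. The 10 genes were chosen on these values, so both counts are descriptions from which nothing is read. Saa3 and Il33 did not overlap between the groups, where 10.1% of all genes did not overlap and 5.07% were lower in every Laminectomy mouse. The log2 fold change was below 0 for 7 of the 10 genes, with a median of -0.89 against 0.00 over all genes. None of the marker sums passed the test in this contrast. Macrophage and monocyte markers, 10 genes summed, lay between 5199 and 8801 CPM in SHAM and 3822 and 5855 in Laminectomy mice (two-sided exact permutation test, p = 0.0571, adjusted over 27 tests 0.103). By group mean 9 of these 10 markers were lower in Laminectomy and 1 higher. The summed adipocyte markers differed by -1.30 on the log2 scale (p = 0.257, adjusted 0.316, exact permutation), or by -0.65 without SHAM 3. All 7 adipocyte markers had a lower mean in Laminectomy. Keratinocyte markers, 7 genes summed, lay between 44.31 and 221 CPM in SHAM and 18.3 and 30.3 in Laminectomy mice (p = 0.0286, the smallest that 4 against 4 mice allow, adjusted 0.0643, exact permutation). The summed neutrophil markers were higher in Laminectomy by 0.95 on the log2 scale (p = 0.0857, adjusted 0.129, exact permutation), with 6 of the 12 markers higher and 6 lower by group mean. Mmp9 (382.2 to 953.3 CPM), Ngp (92.22 to 471.8) and Ltf (52.61 to 265.3) had higher means in Laminectomy than in SHAM, and Csf3r (211.5 to 107.6) and Clec4d (144.5 to 69.99) lower ones. The sizes for Ngp and Ltf rested in part on single mice. Their log2 fold changes were 2.355 and 2.334, and 3.861 and 3.859 without SHAM 4. That of Ngp was 1.755 without Laminectomy 3. Among the keratinocyte markers Sbsn, a skin secreted protein, had a log2 fold change of -1.43 ± 0.31 (adjusted p = 0.111, edgeR). Krt10, a keratin of upper skin layers, was at 50.6 CPM in SHAM 1 against at most 5.82 CPM elsewhere. Krt5, another keratin, was at 27.4, 2.03, 31.9 and 0.374 CPM in SHAM mice. All 7 keratinocyte markers had a higher mean in SHAM than in Laminectomy and in No operation. Against No operation the SHAM sum differed by 1.27 on the log2 scale (p = 0.0571, adjusted 0.103, exact permutation). The part of these cells in the values of the 10 genes was not tested.

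**Figure D3:**
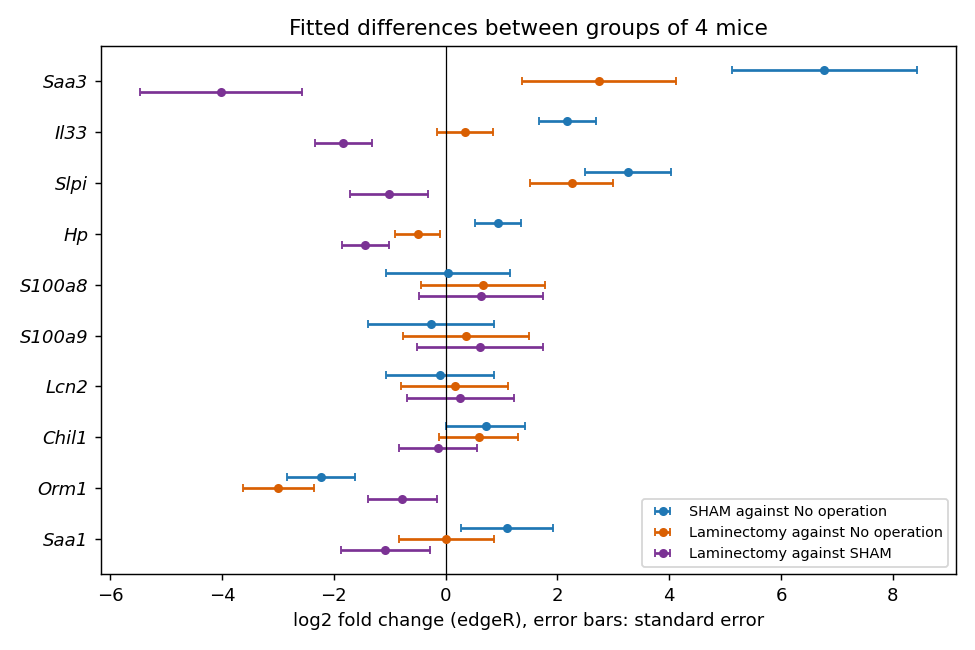
Log2 fold change (edgeR, points) with its standard error (bars) for the 10 genes in the 3 group comparisons of 4 mice each. Saa3 has the widest gap between SHAM and Laminectomy (-4.02), Orm1 lies below 0 against No operation in both operated groups, and the bars of S100a8, S100a9, Lcn2 and Saa1 span about a log2 unit either side of their points.

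The lists of related genes that follow are read against all genes tested, of which 25.7% were called higher and 25.1% lower in SHAM, and 24.2% higher and 24.4% lower in Laminectomy against No operation. In the same contrasts the summed fibroblast markers, of which 4 of 9 and 3 of 9 had a lower mean, differed by 2.00 and 1.75 on the log2 scale, those of macrophages and monocytes by 2.21 and 1.69, and those of skeletal muscle by -4.20 and -3.61 (p = 0.0286 each, adjusted 0.0643, exact permutation). Summed smooth muscle markers differed by -1.135 and -0.883 with the same p. In Laminectomy alone, sums of adipocyte (-3.55), hepatocyte (-5.19) and keratinocyte markers (-0.605) had this p as well. The part of these cells in the values of the lists was not tested. Of 24 other acute-phase proteins listed, 14 could be tested, since the fibrinogen chains, Crp, Apcs and other liver-restricted members had too few counts. In SHAM against No operation 5 rose and 0 fell, and in Laminectomy against No operation 3 rose and 1 fell, with medians of 1.21 and -0.10 against 0.00 and 0.01 for all genes. The 5 of 14 and 4 of 14 called lie below the 50.8% and 48.6% of all genes called. Serpina3n, a serine protease inhibitor, was at 277.3, 73.9, 52.2 and 45.5 CPM in the No operation group, 702.7, 391.3, 416.4 and 107.7 CPM in the SHAM group and 4.45, 88.8, 134.9 and 122.6 CPM in the Laminectomy group. Its log2 fold change was 1.85 ± 0.89 for SHAM against No operation (adjusted p = 0.0898, edgeR), or 2.82 without No operation 1, and -2.21 ± 0.90 for Laminectomy against SHAM (adjusted p = 0.259, edgeR). C3, the central complement component, fell in Laminectomy against No operation by 1.14 on the log2 scale (SE 0.44, adjusted p = 0.0420, edgeR). That call was lost without any single No operation mouse, without SHAM 3 and without Laminectomy 1, 2 or 4, with changes of -0.88 to -1.22. Between the operated groups C3 was lower in all Laminectomy mice than in all SHAM mice (-1.79 ± 0.45, adjusted p = 0.117, edgeR). Steap4, a metalloreductase of adipocytes and macrophages, had 0.56 ± 0.31 in SHAM (adjusted p = 0.135, edgeR) and -0.54 ± 0.31 in Laminectomy mice (adjusted p = 0.154) against No operation. Orm3 had -0.54 ± 0.49 and -0.86 ± 0.50 in these contrasts (adjusted p = 0.360 and 0.157, edgeR).

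Of 14 other alarmins tested, 5 rose and 3 fell in SHAM, and 4 rose and 4 fell in Laminectomy against No operation, so 8 of 14 were called in each contrast, near the 50.8% and 48.6% of all genes. Lgals3, galectin-3 of macrophages, rose from 30.7 to 118.2 CPM in No operation mice to 347.4 to 546.0 in SHAM and 304.1 to 482.2 in Laminectomy mice (log2 fold change 2.65 ± 0.38, adjusted p = 0.000122, and 2.25 ± 0.38, adjusted p = 0.000399, edgeR). Anxa1, a lipid-binding alarmin that restrains neutrophils, rose by 0.63 ± 0.23 in SHAM (adjusted p = 0.0360) and by 0.81 ± 0.24 in Laminectomy mice (adjusted p = 0.0114, edgeR). The first of these calls was lost without No operation 1 (0.63), 3 (0.67) or 4 (0.43) and without SHAM 1 (0.60) or 4 (0.49). Hmgb1, the nuclear DNA-binding alarmin, had 0.06 ± 0.11 and 0.21 ± 0.11 (adjusted p = 0.685 and 0.126, edgeR).

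Of 13 other S100 genes, 8 were tested, and 5 rose and 2 fell in SHAM, and 3 rose and 2 fell in Laminectomy against No operation, where the fibroblast, macrophage and skeletal muscle sums differed as given above (2.00 and 1.75, 2.21 and 1.69, and -4.20 and -3.61 on the log2 scale). S100a11 was between 84.9 and 123.6 CPM in No operation, 228.4 and 298.2 in SHAM, and 198.7 and 290.7 in Laminectomy mice (log2 fold change 1.30 ± 0.16, adjusted p = 3.89e-05, and 1.08 ± 0.16, adjusted p = 0.000149, edgeR). S100a6 rose by 0.82 ± 0.17 in SHAM (adjusted p = 0.00127) and by 0.51 ± 0.17 in Laminectomy mice (adjusted p = 0.0209, edgeR), the latter lost without No operation 2 (0.41) or 4 (0.42) or Laminectomy 1 (0.46) or 4 (0.45). S100a10 rose by 0.63 ± 0.19 in SHAM (adjusted p = 0.0147, edgeR), which was lost without No operation 2 (0.50), and had 0.40 ± 0.19 in Laminectomy mice (adjusted p = 0.0919).

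Of 17 tested receptors through which these proteins act, 13 rose and 1 fell in SHAM, and 10 rose and 2 fell in Laminectomy against No operation, where 25.7% and 24.2% of all genes were called higher. The macrophage and monocyte marker sum was higher in the same contrasts, by 2.21 and 1.69 on the log2 scale, as was the fibroblast sum of mainly collagens, by 2.00 and 1.75, and the skeletal muscle sum differed by -4.20 and -3.61. The part of these cells in the receptor values was not tested. Il1rl1, the ST2 receptor for interleukin-33, was at 23.4, 9.26, 9.86 and 8.90 CPM in the No operation group, 77.4, 66.3, 52.5 and 121.9 CPM in the SHAM group and 47.4, 46.7, 33.8 and 60.0 CPM in the Laminectomy group. It rose by 2.63 ± 0.36 in SHAM (adjusted p = 8.97e-05) and by 1.87 ± 0.35 in Laminectomy mice (adjusted p = 0.000886, edgeR). In Laminectomy tissue the receptor lay above all No operation mice and its ligand Il33 did not. Tlr4, which reads calprotectin and serum amyloid A, rose by 0.94 ± 0.22 in SHAM (adjusted p = 0.00315, edgeR), had 0.22 ± 0.22 in Laminectomy mice (adjusted p = 0.418), and was lower in all Laminectomy than in all SHAM mice (-0.72 ± 0.22, adjusted p = 0.158). Ager, the receptor RAGE, stayed below 5 CPM and rose by 1.51 ± 0.39 (adjusted p = 0.00541) and 1.22 ± 0.39 (adjusted p = 0.0173, edgeR), the latter lost without No operation 3 (1.08). Emb, a receptor that binds S100A8 with S100A9, rose by 2.29 ± 0.42 (adjusted p = 0.000627) and 1.83 ± 0.41 (adjusted p = 0.00258, edgeR). Cd36, a scavenger receptor that also binds serum amyloid A and is rich in muscle and fat, fell by 0.84 ± 0.21 (adjusted p = 0.00471) and 1.44 ± 0.21 (adjusted p = 0.000182, edgeR). Bsg, basigin, fell by 0.56 ± 0.15 in Laminectomy mice (adjusted p = 0.00686, edgeR), a call lost without No operation 4 (-0.47), and had -0.37 ± 0.15 in SHAM mice (adjusted p = 0.0451).

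Genes of the pathway that induces acute-phase proteins were more often higher than lower in both operated groups: of 25 genes tested, 20 rose and 0 fell in SHAM, and 14 rose and 2 fell in Laminectomy against No operation, with median log2 fold changes of 1.46 and 0.92 against 0.00 and 0.01 for all genes. Of all genes 25.7% and 24.2% were called higher in these contrasts. The part of the cells whose marker sums differed in them was not tested. Among these sums were macrophages and monocytes (2.21 and 1.69 on the log2 scale), fibroblasts (2.00 and 1.75) and skeletal muscle (-4.20 and -3.61). Il6 was at 0.620, 0.189, 0.0666 and 0.0 CPM in the No operation group, 14.1, 6.69, 13.5 and 12.2 CPM in the SHAM group and 3.76, 14.6, 3.11 and 16.9 CPM in the Laminectomy group. It rose by 5.69 ± 0.84 (adjusted p = 0.000143) and 5.42 ± 0.83 (adjusted p = 0.000230, edgeR), and differed by -0.27 ± 0.60 between the operated groups (adjusted p = 0.849). Without No operation 1 the contrasts with No operation were 6.93 and 6.66. Socs3, the feedback inhibitor that STAT3 induces, rose by 2.56 ± 0.59 in SHAM (adjusted p = 0.00298) and by 1.58 ± 0.58 in Laminectomy mice (adjusted p = 0.0330, edgeR). The second call was lost without No operation 2, 3 or 4 and without Laminectomy 1, 2 or 4, with changes of 1.31 to 1.59, and without No operation 1 both changes were larger (3.67 and 2.69). Socs3 lay between 174.2 and 293.9 CPM in SHAM and 61.2 and 166.7 CPM in Laminectomy mice, without overlap (adjusted p = 0.415, edgeR). Stat3 rose by 0.62 ± 0.17 in SHAM (adjusted p = 0.00761, edgeR) and had 0.29 ± 0.17 in Laminectomy mice (adjusted p = 0.155). Cebpd, a C/EBP factor of the acute phase, had -0.28 ± 0.27 in SHAM (adjusted p = 0.384) and fell by 1.12 ± 0.28 in Laminectomy mice (adjusted p = 0.00452, edgeR). Il6st, the shared receptor subunit gp130, fell by 0.59 ± 0.16 in Laminectomy mice (adjusted p = 0.00834, edgeR), a call lost without No operation 1 (-0.49) or Laminectomy 1 (-0.50), and had -0.22 ± 0.16 in SHAM mice (adjusted p = 0.249). Jak1 had 0.20 ± 0.15 and -0.18 ± 0.15 (adjusted p = 0.245 and 0.293, edgeR).

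**Figure D4:**
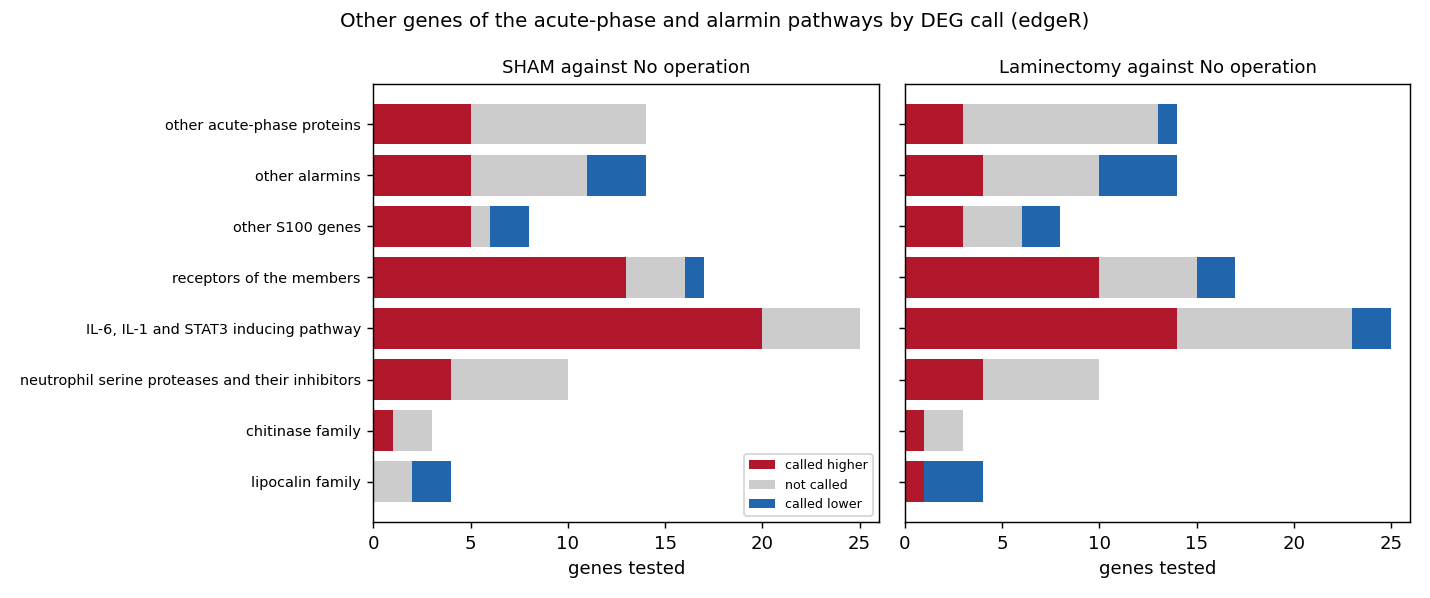
Number of genes tested in each of 8 lists of related genes, split into genes called higher, not called and called lower (edgeR) in SHAM (left) and Laminectomy (right) against No operation. The inducing pathway has 20 of 25 genes higher and 0 lower in SHAM, and 14 higher and 2 lower in Laminectomy mice.

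Among neutrophil serine proteases and their inhibitors, 4 of 10 tested rose and 0 fell in both contrasts with No operation, against 50.8% and 48.6% of all genes called in either direction. Grn, progranulin, an elastase substrate that Slpi protects, rose by 2.05 ± 0.21 (adjusted p = 1.47e-05) and 1.64 ± 0.20 (adjusted p = 6.42e-05, edgeR). Ctsc, the protease that activates elastase, rose by 2.07 ± 0.26 (adjusted p = 4.87e-05) and 1.59 ± 0.26 (adjusted p = 0.000302, edgeR). Both are also lysosomal genes of macrophages, whose summed markers were 2.21 and 1.69 higher on the log2 scale in these contrasts. The part of macrophages in the Grn and Ctsc values was not tested. Elane and Mpo had log2 fold changes of -1.90 ± 1.47 and -2.01 ± 1.60 in SHAM mice and of 0.10 ± 1.40 and -0.06 ± 1.54 in Laminectomy mice (adjusted p between 0.278 and 0.975, edgeR). Without No operation 2 they were -0.38 and -0.43 in SHAM and 1.62 and 1.52 in Laminectomy mice, without SHAM 4 -3.33 and -3.32 in SHAM, and without Laminectomy 3 -0.73 and -0.88 in Laminectomy mice. Slpi was thus higher in operated tissue while the transcript of its target Elane overlapped between all groups.

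In the chitinase family 3 of 6 genes were tested. Chil3, the macrophage and neutrophil protein Ym1, ranked the No operation mice as Chil1 did, at 34.9, 339.6, 149.6 and 2.94 CPM. It lay between 53.3 and 182.8 CPM in SHAM and 65.8 and 518.0 in Laminectomy mice (log2 fold changes against No operation 0.02 ± 1.00 and 0.83 ± 1.01, adjusted p = 0.989 and 0.501, edgeR). Without No operation 2 these were 1.09 and 1.90, and without Laminectomy 3 the second was 0.08. Between the operated groups Chil3 had 0.81, or 0.06 without Laminectomy 3, where Chil1 had -0.13. Chid1, a lysosomal family member, rose by 0.76 ± 0.10 (adjusted p = 7.33e-05) and 0.62 ± 0.10 (adjusted p = 0.000357, edgeR). Ctbs, which degrades chitobiose, had 0.32 ± 0.15 and 0.15 ± 0.15 (adjusted p = 0.0807 and 0.423, edgeR). In the lipocalin family, to which Lcn2 and Orm1 belong by fold, 4 of 8 genes were tested, with 2 falling in SHAM and 3 falling and 1 rising in Laminectomy against No operation. Rbp4, the retinol carrier, fell by 1.43 ± 0.38 (adjusted p = 0.00692) and 2.10 ± 0.39 (adjusted p = 0.000829, edgeR). Apod fell by 2.15 ± 0.65 in Laminectomy mice (adjusted p = 0.0137, edgeR) and had -0.89 ± 0.63 in SHAM mice (adjusted p = 0.233), or -1.61 without SHAM 1. Summed adipocyte markers differed by -2.25 in SHAM and -3.55 in Laminectomy against No operation (p = 0.0571 and 0.0286, adjusted 0.103 and 0.0643, exact permutation). All 7 of these markers had a lower mean in both contrasts. The part of adipocytes in the lipocalin values was not tested. Ptgds, a prostaglandin synthase made in quantity by the meninges, rose in Laminectomy against No operation (adjusted p = 0.00181, edgeR). It measured 0.0, 0.0, 0.0666 and 0.140 CPM in the No operation group, 0.0 to 0.953 CPM in the SHAM group and 0.582, 13.9, 9.32 and 0.991 CPM in the Laminectomy group.

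Over all 95 tested genes of these lists, 53 rose and 8 fell in SHAM and 40 rose and 14 fell in Laminectomy against No operation, against 50.8% and 48.6% of all genes called in either direction. Between Laminectomy and SHAM edgeR called 0 of the 95, with 35 at an unadjusted p under 0.05 (2360 of all 14765 genes), and DESeq2 called 13. The log2 fold change was below 0 for 76 of the 95, with a median of -0.43 against 0.00 for all genes. Exons of Hmgb1, Stat3, Jak1, Grn, Emb, Cebpd, Mpo, Chid1, Ctbs and Krt10 overlap those of a gene on the opposite strand, and the libraries were stranded but the counting is given only as default, so reads of overlapping genes cannot be told apart. Of the hepatocyte markers only Cyp2e1, a cytochrome, and Alb were tested. The highest Cyp2e1 of all mice was in SHAM 3 (427.1 CPM). Cyp2e1 fell in Laminectomy against No operation (log2 fold change -4.57 ± 1.56, adjusted p = 0.0246, edgeR), a call lost without Laminectomy 2 (-4.36) and at -5.22 without Laminectomy 3, and Alb fell as well (-4.02 ± 1.23, adjusted p = 0.0149). In SHAM mice Sbsn rose by 0.83 ± 0.30 against No operation (adjusted p = 0.0327, edgeR), a call lost without No operation 2 (0.76), 3 (0.76) or 4 (0.77) or SHAM 1 (0.48) or 2 (0.82).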

How the data were processed

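The mRNA of soft and scar tissue from 12 mice was sequenced by the authors (TruSeq stranded poly(A) libraries, paired-end reads), aligned with STAR 2.6.1b to GRCm38 and counted per gene with featureCounts 2.0.1 at default settings, and tested with DESeq2 1.30.1, as the submitters' processing notes and the study's methods give it. The authors deposited a single table of estimated counts for 18996 genes, not normalized, in which 10.22% of values are not whole numbers; the step that made these fractions is not given in the sources used here. The values of the 10 genes described were whole in every mouse. No columns of other samples or of the authors' own comparisons were used. Groups and mouse numbers came from the sample labels. Whether separate animals gave every sample is taken from the design text, which calls them biological replicates.

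Values were rounded to whole numbers. Genes with low counts were removed by filterByExpr (4231 removed, 14765 tested), TMM gave the library scaling, and a single model of the 3 group means over 12 mice was fitted by edgeR's quasi-likelihood method (edgeR 4.0.16, R 4.3.3) and Benjamini-Hochberg adjustment over all genes tested. DEGs needed an adjusted p below 0.05 together with a log2 fold change beyond 0.5 in size. Standard errors were derived from the fold change and its F statistic (absolute log2 fold change over root F). Depth was 16803002 to 18077873 counts per mouse, which limits genes with few counts such as Saa1; counting error only is covered, since reads carry no molecule tags. Marker sums, as log2(summed CPM + 1), were set against each other in 4 against 4 mice with the exact permutation test, two-sided, with adjustment over 27 tests. None of the adjusted values passed, the smallest being 0.0643.

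The 10 genes, and the lists of related genes and cell type markers, were chosen with earlier results of these data known. Genes named in the text are the 10 genes, in each list of related genes the 3 tested genes with the highest mean CPM and some named beforehand (Saa2, Orm2, Orm3, Serpina3n, Il1rl1, Tlr4, Ager, Il6, Socs3, Cebpd, Elane and Chil3), the top 2 of 4 marker lists (neutrophil, hepatocyte, adipocyte and keratinocyte), and the 5 genes most like each of Saa3, S100a9 and Il33. Ltf, Csf3r, Clec4d, Krt5, Col1a1, Col3a1, Postn, Dcn and Pi16, and Crp and Apcs by name, are outside the rule and were picked with their values in view. Alternatives were DESeq2 1.42.0, RLE scaling, no count filter, at least 10 counts in every mouse, a replicate block, only the compared groups, a log2 fold change above 1, and leaving out each mouse. Scaling by plain library size was added after seeing the data. The fitting script was tested on simulated data. Gene positions came from the GENCODE annotation of GRCm38 and promoters from RefSeq (GRCm38.p6). Figures were drawn with matplotlib 3.10.9.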

Additional observations from a re-analysis of the deposited data

Results flagged for a closer look

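Of 57 group values checked, 4 held a mouse far from its group mates by Dixon's test, which flags about 1 in 20 groups by chance. Saa3 in No operation 1 was at 59.13 CPM, against 0.491 to 0.945 CPM in the other 3 mice of the group. In the same mouse the summed keratinocyte markers were at 53.76 CPM, against 32.9 to 35.8 CPM in the others, carried by Sbsn at 47.5 CPM. SHAM 3 held 429.2 CPM of summed hepatocyte markers, nearly all of it Cyp2e1 at 427.1 CPM, against 2.88 to 52.9 CPM in the other SHAM mice. SHAM 3 also held 2349 CPM of summed adipocyte markers, against 265.8 to 606.7 CPM in the others. The cause of these values was not tested.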

How the results depend on the processing

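The log2 fold changes of the 10 genes kept their direction wherever a DEG was called. Requiring at least 10 counts in every mouse dropped Saa3, Saa1, Orm1 and Slpi, which were then not tested. Of the members still tested, 1 was called in SHAM and 0 in Laminectomy against No operation. Of all 12843 genes tested under this setting, 3262 were called higher and 3293 lower in SHAM, and 3063 higher and 3178 lower in Laminectomy. Leaving out each mouse gave 4 to 5 called in SHAM and 1 to 2 in Laminectomy against No operation, the 1 without No operation 3 or Laminectomy 1, and 0 between Laminectomy and SHAM. DESeq2 called 3 of the 10 genes and 13 genes of all lists between Laminectomy and SHAM, where edgeR called 0 of each; the cause was not tested. Same-numbered mice deviated together in part only (correlations of -0.228 to 0.352, 7 of 12 above 0.1). Pairs with different numbers ran from -0.454 to 0.345, with a smaller share above 0.1. These values do not establish that the numbers pair the mice. With the replicate block 4, 3 and 0 of the 10 genes were called, the added call being Saa3 in Laminectomy against No operation (5.29). Of all lists, 61 and 52 genes were called against No operation with the block, where 61 and 54 were called without it. Calls were lost under the block, at log2 fold changes near or above those without it, for Anxa1 in SHAM (0.66) and C3 (-1.05) and Mmp9 (3.17) in Laminectomy against No operation. They were also lost when only the 2 compared groups were fitted for Anxa1 (0.63) and Sbsn (0.83) in SHAM and Socs3 (1.60) and Mmp9 (2.65) in Laminectomy. The summed endothelium markers differed by -0.064 on the log2 scale between Laminectomy and SHAM, and turned to 0.002 with plain library size, 0.022 without SHAM 3 and 0.031 without Laminectomy 3 (range over single mice left out -0.163 to 0.031). Plain library size, chosen after seeing the data, moved the median log2 fold change of all genes to 0.253 in SHAM and 0.328 in Laminectomy against No operation, and the DEG split from 3799 higher and 3703 lower to 5179 and 2671, and from 3577 and 3605 to 5456 and 2347; the Laminectomy calls of C3, Il6st and Bsg were lost under it, and Hp gained a call in SHAM (1.17), as it did with DESeq2 (0.94).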
